A study of Mus musculus with 8 samples.

Results

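The nuclear-encoded subunits of the oxidative phosphorylation machinery were compared between mouse embryonic stem (ES) cells with genomes of different parental origin. Members were chosen by gene symbol alone: the Nduf subunits of complex I, Sdha to Sdhd of complex II, the Uqcr genes and Cyc1 of complex III, Cycs (cytochrome c), the Cox4 to Cox8 families of complex IV, and the Atp5 genes of complex V. A probe had to be detected at a p-value under 0.01 on at least 2 of 8 arrays, and each gene was represented by its brightest probe. This gave 72 genes of 8221 measured and named genes, read by 88 kept probes of 89 annotated. Complex I had 32 members, complex II had 3, complex III had 7, cytochrome c had 1, complex IV had 14 and complex V had 15. Genes outside the probe annotation, Sdha among them, were not analysed here. Of the 72 genes, 70 were detected on every array, and Cycs and Atp5e were not.

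Each RNA sample was read on its own single-colour Illumina BeadChip. Androgenetic ES cells, whose genome comes from the father alone, had 3 arrays, taken at passages 6, 7 and 8 (replicates 1, 2 and 3). Parthenogenetic ES cells, whose genome comes from the mother alone, had 2 arrays, from passages 6 and 7 (replicates 1 and 2). Fertilized ES cells, with a genome from each parent, had 3 arrays, from passages 6, 7 and 8 (replicates 1, 2 and 3). All were of strain B6129F1. The sex label was female and male on every androgenetic and every fertilized array, each said to hold both X and Y, and it was female on the parthenogenetic arrays. The labels name no separate lines or cultures, so p-values measure the spread between these samples, which were different passages and may be technical repeats of 1 line.

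Oxidative phosphorylation is the series of protein complexes in the inner mitochondrial membrane that makes most of the ATP of a respiring cell. Complex I takes electrons from NADH and complex II takes them from succinate. Complex III passes them to cytochrome c, complex IV hands them to oxygen, and complex V uses the resulting proton gradient to make ATP. The subunits studied here are encoded in the nucleus and are joined in the complexes by a small set encoded by mitochondrial DNA. Naive ES cells are known to use both respiration and glycolysis, and the balance shifts toward glycolysis as they move to a primed state.

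Signals are given as log2 intensity after background correction and quantile normalization, and a change is a difference of group means on that scale. A change was called when its p-value from limma's moderated test, adjusted by the Benjamini-Hochberg method over all kept probes, was under 0.05. Median raw signals ran from 127 to 167 per array, and 41.3% to 43.5% of probes were detected on each. The number of arrays limits the precision. Atp5b reached raw signals of 54151 to 63493 and Atp5g3 39774 to 59997, close to the highest signal of any probe on an array (58943 to 66366), so their differences may be compressed.

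Fertilized replicate 3 stood apart from fertilized replicates 1 and 2 for these genes. On it, 59 of 72 subunits were lower than the mean of the other fertilized arrays, where 4216 of all 8221 genes were. The difference had a median of -0.39 on the log2 scale over the subunits, against -0.0090 over all genes. The median difference was -0.48 for complex I, -0.059 for complex II, -0.23 for complex III, -0.50 for complex IV and -0.29 for complex V. The array was high for some members too.

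Ndufa3, a small membrane-arm subunit of complex I, was at 12.48 and 12.33 on fertilized replicates 1 and 2 and at 10.77 on replicate 3. That difference of -1.63 was the lowest of all 8221 genes. Cox7a1, the complex IV isoform of heart and skeletal muscle, was at 10.73, 10.63 and 9.17 in the same order. Atp5a1, the alpha subunit of ATP synthase, ran the other way, at 11.42, 11.54 and 12.16. Mitochondrial ribosomal proteins were lower there for 58 of 71 genes (median -0.22), and cytosolic ribosomal proteins for 33 of 54 (median -0.12). These stand beside the 4216 of all 8221 genes.

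The SD of a subunit within fertilized cells had a median of 0.276, which fell to 0.0697 between replicates 1 and 2. It was 0.0526 in androgenetic and 0.0485 in parthenogenetic cells. Over all genes the median SD was 0.14 in fertilized, 0.0688 in androgenetic and 0.0656 in parthenogenetic cells. Because the arrays share 1 estimate of spread, this array also enters the comparison of androgenetic with parthenogenetic cells. Results against fertilized cells are therefore given with all 8 arrays and without fertilized replicate 3. In androgenetic against parthenogenetic cells leaving it out changes the spread and the calls, not the size of a change.

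**Figure D1:**
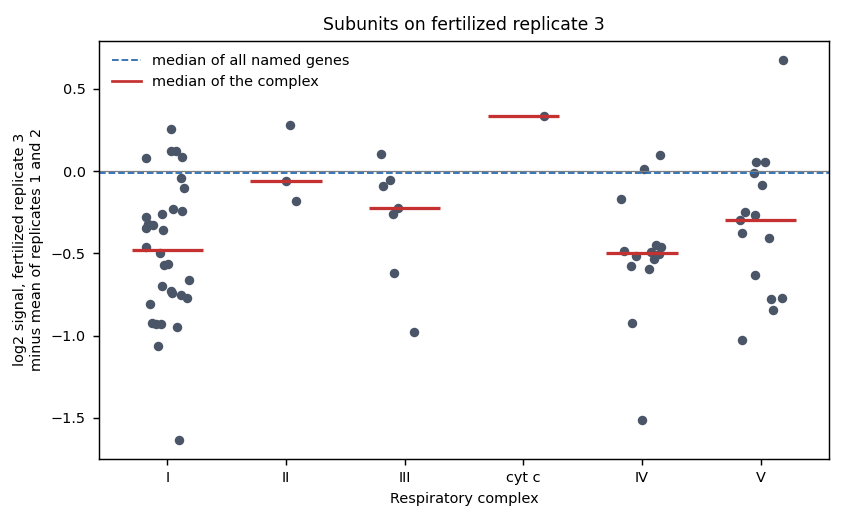
Each point is 1 of the 72 subunits, placed by complex (x axis), with its log2 signal on fertilized replicate 3 minus the mean of fertilized replicates 1 and 2 (y axis). Red bars are medians of a complex and the dashed line is the median of all named genes, and most subunits of complexes I and IV lie below it.

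**Figure D2:**
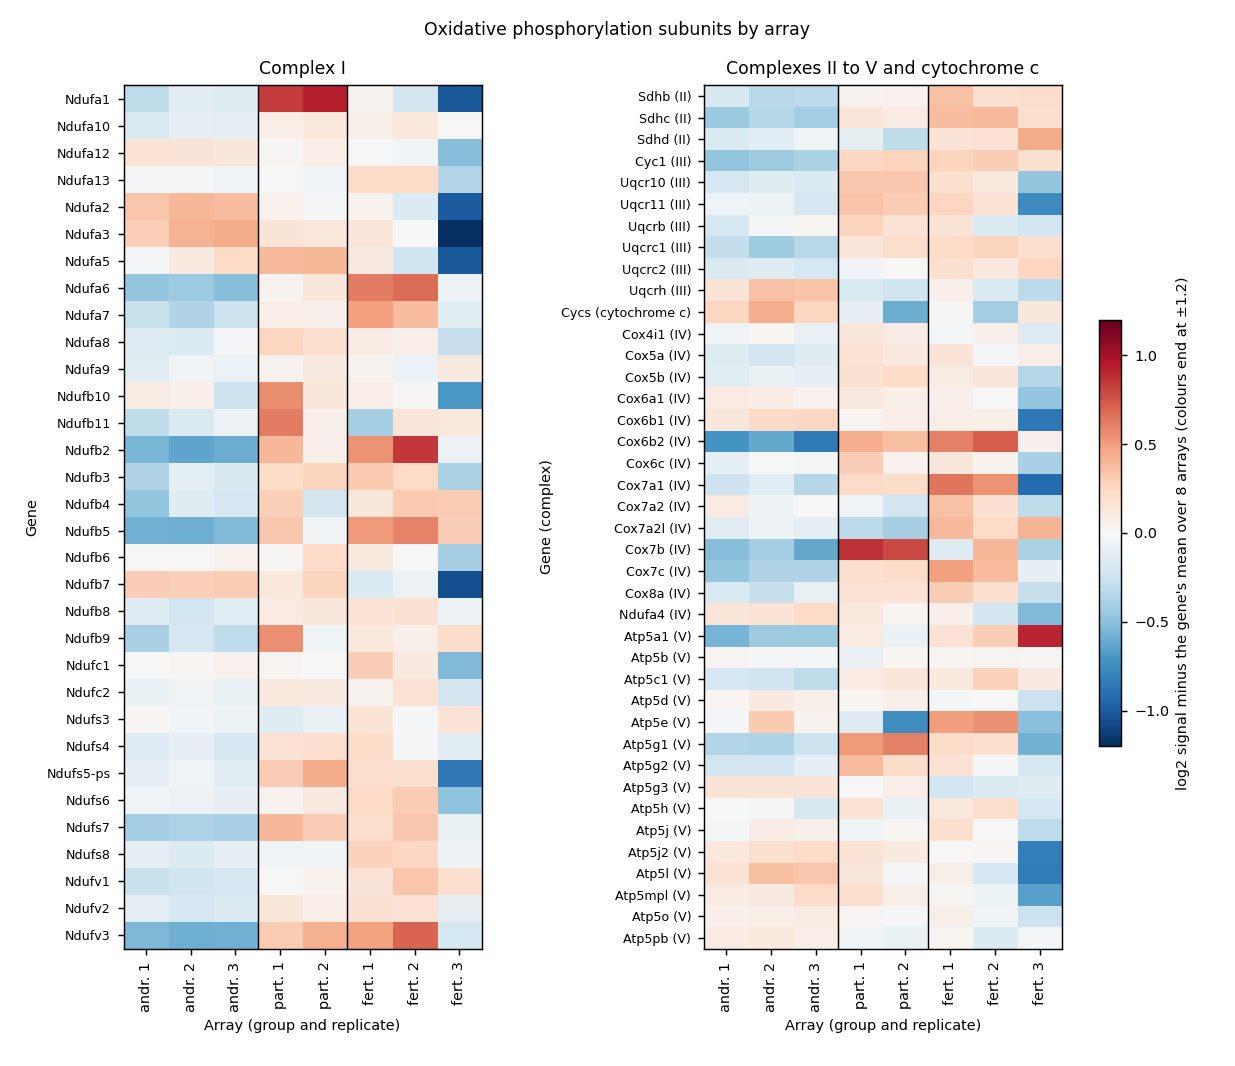
Heat map of the 72 subunits (rows, by complex) on the 8 arrays (columns), coloured by log2 signal minus the gene's mean over all arrays. Many rows are low on the androgenetic arrays, and fertilized replicate 3 differs from the other fertilized arrays over much of complexes I and IV.

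Markers of other cells moved with the groups. The summed linear signal of the 11 pluripotency markers was 33300 to 36700 on androgenetic, 123000 to 125000 on parthenogenetic and 105000 to 110000 on fertilized arrays. All 11 were called lower in androgenetic than in fertilized cells, and Fgf4 was detected on no androgenetic array. The 5 measured of 15 fibroblast markers summed to 10700 to 11300, 3410 to 3940 and 1670 to 1790 in the same order. Vim and Col5a1 were the brightest of them on the androgenetic arrays and weigh most in that sum. Thy1 went the other way and was called lower in androgenetic than in fertilized cells (-0.46). Col1a1 was detected on no fertilized array and Pdgfra on no parthenogenetic array. The 4 measured of 6 trophectoderm markers summed to 73100 to 78400, 14000 to 14600 and 14100 to 16100, with Eomes undetected on parthenogenetic and fertilized arrays. Krt8 and Krt18 weigh most in this sum, at log2 signals of 15.62 to 15.72 and 14.41 to 14.51 on the androgenetic arrays. Eomes and Gata2 were at 8.94 to 9.12 there. The 2 measured of 5 primitive endoderm markers summed to 2540 to 2750, 261 to 284 and 1210 to 1370. Their part in the results that follow was not tested. In bulk RNA, fewer cells of a type and less RNA per cell cannot be told apart.

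Androgenetic against fertilized cells asked how subunit expression differs when the genome is paternal only. Of 72 subunits, 26 were lower, 7 were higher and 39 were not called, with a median change of -0.11. Over all 8221 genes, 39.3% were called lower and 35.4% higher, with a median of -0.051, so the share of subunits called lower (36.1%) was near the background and the share called higher (9.72%) was below it. Most changes were small. Among the called subunits 3, Ndufb2, Ndufb5 and Cox6b2, differed by at least 2-fold, where 28.2% of all genes did, and 5 did so without fertilized replicate 3, where 28.8% of all genes did.

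Leaving out fertilized replicate 3 gave 39 lower and 8 higher subunits (54.2% and 11.1%), with a median of -0.25. Over all genes 40.6% were then lower and 36% higher, so the share of subunits lower was above the background. The number called higher was 4 without androgenetic replicate 3, and 11 without fertilized replicate 1 or without fertilized replicate 2. The median, which was -0.11 over all arrays, was -0.049 and -0.035 in those last 2 fits. Each array was left out in turn and other processing settings were used, 18 settings in all. Called lower in every setting were 19 subunits, and called higher in every setting was Ndufb7 alone.

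**Figure D3:**
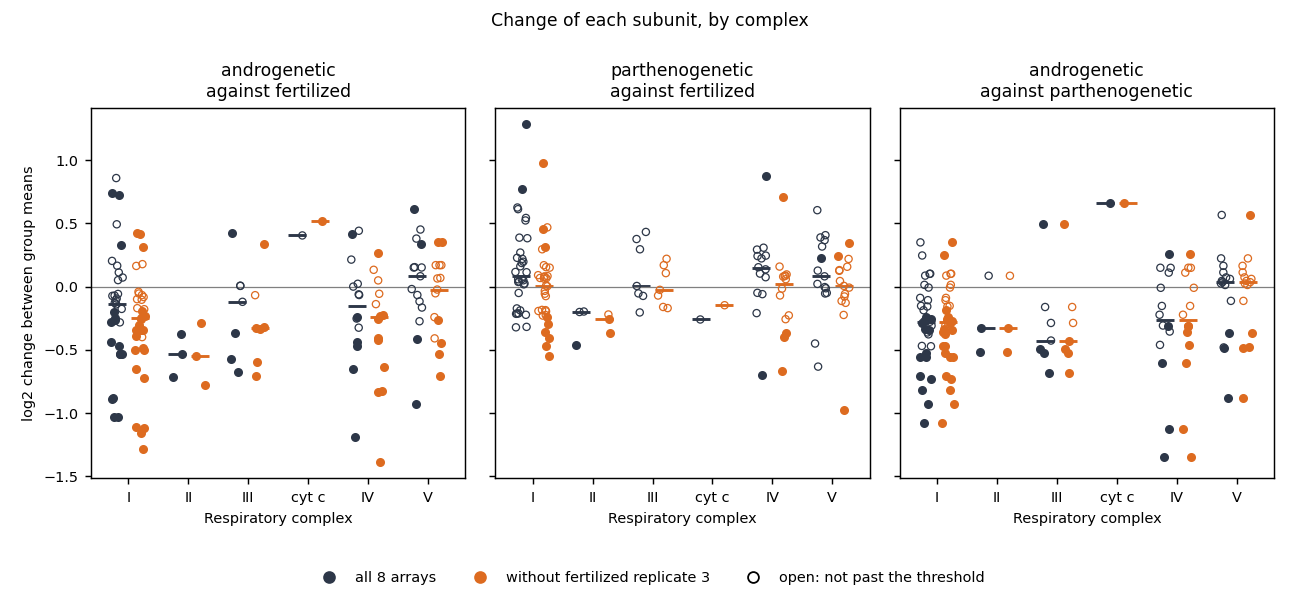
Each point is 1 subunit's log2 change (y axis) by respiratory complex (x axis) in the 3 comparisons, from all 8 arrays (dark) and without fertilized replicate 3 (orange). Filled points passed the threshold and bars are medians. All 3 complex II subunits lie below 0 in the panel of androgenetic against fertilized cells.

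Complex II, which also works as succinate dehydrogenase in the citric acid cycle, was lower in androgenetic cells in all 3 measured subunits. All 3 were again lower without fertilized replicate 3. Sdhc, which helps anchor the enzyme in the membrane, was at 11.93, 12.04 and 11.97 on the androgenetic arrays and at 12.74, 12.77 and 12.57 on the fertilized arrays. The groups did not overlap, and the change was -0.72 ± 0.079 (SE; 1.64-fold lower, limma adjusted p = 3.82e-05), or -0.78 without fertilized replicate 3. Sdhb, the iron-sulfur subunit, measured 10.99, 10.85 and 10.86 in androgenetic against 11.53, 11.37 and 11.39 in fertilized cells. It was lower by a log2 change of -0.53 ± 0.078 (SE; limma adjusted p = 0.000258), and its second probe gave -0.40. On the array set without fertilized replicate 3 it was -0.55. Sdhd, the other membrane anchor, measured 9.24, 9.27 and 9.37 against 9.57, 9.59 and 9.86, a change of -0.38 ± 0.101 (SE; limma adjusted p = 0.00806), or -0.28 without fertilized replicate 3. These 3 genes moved little on fertilized replicate 3 compared with complexes I and IV.

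Complex III had 3 of 7 subunits lower and 1 higher, and without fertilized replicate 3 it had 5 lower and 1 higher. Cyc1, the cytochrome c1 subunit that gives electrons to cytochrome c, was at 12.04, 12.08 and 12.13 on androgenetic and 12.78, 12.80 and 12.70 on fertilized arrays. Its change was -0.68 ± 0.069 (SE; limma adjusted p = 2.27e-05), and the groups were far apart beside their spread. It was -0.71 without fertilized replicate 3. Uqcrc1, a core protein of the complex, measured 12.54, 12.40 and 12.49 against 13.05, 13.09 and 13.02, a change of -0.58 ± 0.071 (SE; limma adjusted p = 8.24e-05), or -0.59 without that array. Uqcrc2, the other core protein, changed by -0.37 ± 0.070 (SE; limma adjusted p = 0.00126), or -0.33 without it.

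Uqcrh, the hinge protein near the cytochrome c1 head, went the other way. It was at 14.12, 14.32 and 14.31 in androgenetic and 14.02, 13.80 and 13.65 in fertilized cells, a change of 0.42 ± 0.108 (SE; limma adjusted p = 0.00639), with a gap between the groups that was smaller than the spread of the fertilized arrays. Its change was 0.34 without fertilized replicate 3. Uqcr10, Uqcr11 and Uqcrb, small subunits of the same complex, were not called, at -0.12, 0.01 and 0.01. Uqcr10 (-0.33) and Uqcr11 (-0.32) were called lower without fertilized replicate 3. Cycs, cytochrome c itself, was dim. Its second probe was detected on the 3 androgenetic arrays alone and passed the detection filter only through them. That filter favours a call of higher, so its change of 0.89 is not read as support. The brighter probe, used for the gene, was detected on 3 androgenetic, 1 parthenogenetic and 2 fertilized arrays. Its change of 0.40 was not called (limma adjusted p = 0.0551), whereas without fertilized replicate 3 it was called at 0.52. It was also called without either parthenogenetic array (limma adjusted p = 0.0362).

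Complex I had 13 of 32 subunits lower and 3 higher, and 18 lower and 3 higher without fertilized replicate 3. Among the core subunits that carry electrons or form the conserved centre, 4 of the 5 measured were lower in both array sets, and the changes of all 5 were negative: Ndufv1, Ndufv2, Ndufs7 and Ndufs8, with Ndufs3 not called. Division into core and accessory subunits was made after the values were seen. Ndufv1, which binds FMN and takes the electrons from NADH, was at 13.24, 13.27 and 13.30 in androgenetic and 13.66, 13.85 and 13.72 in fertilized cells, a change of -0.47 ± 0.075 (SE; limma adjusted p = 0.000399). Its lowest fertilized array lay well above its highest androgenetic array, and the change was -0.49 without fertilized replicate 3. Ndufs7, which holds the iron-sulfur cluster next to the quinone site, measured 12.22, 12.25 and 12.23 against 12.82, 12.94 and 12.53, a change of -0.53 ± 0.107 (SE; limma adjusted p = 0.00163), or -0.65 without that array.

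Accessory subunits, which build the shell of complex I and aid its assembly, were lower in 9 and higher in 3 of 27 genes, and lower in 14 and higher in 3 without fertilized replicate 3. Ndufb5, of the membrane arm, was at 9.49, 9.48 and 9.53 in androgenetic and 10.58, 10.66 and 10.35 in fertilized cells, a change of -1.03 ± 0.114 (SE; 2.04-fold lower, limma adjusted p = 4.1e-05), or -1.12 without fertilized replicate 3. Ndufb2, also of the membrane arm, measured 8.74, 8.66 and 8.69 against 9.83, 10.14 and 9.21. Its change was -1.03 ± 0.208 (SE; limma adjusted p = 0.00178), and fertilized replicate 3 was the closest to the androgenetic arrays, so that it was -1.29 without that array. The same held for Ndufv3, of the NADH-binding module (12.10, 12.05 and 12.06 against 13.12, 13.34 and 12.42; -0.89, or -1.16 without it), and for Ndufa6, a LYR-motif protein of the matrix arm (12.54, 12.57 and 12.50 against 13.62, 13.68 and 12.95; -0.88, or -1.11 without it).

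The 3 higher accessory subunits were Ndufa2, Ndufb7 and Ndufa12. Ndufa2, a thioredoxin-fold protein of the NADH-binding module, was at 13.31, 13.38 and 13.35 in androgenetic and 13.03, 12.82 and 11.99 in fertilized cells, a change of 0.74 ± 0.226 (SE; limma adjusted p = 0.0161). It was 0.43 and still called without fertilized replicate 3. Ndufb7, on the intermembrane-space side of the membrane arm, measured 9.62, 9.61 and 9.63 against 9.16, 9.25 and 8.27, which gave 0.73 over all arrays and 0.42 without fertilized replicate 3. The fertilized arrays were lower in both genes, replicate 3 most of all. Ndufa12, at 0.33, was no longer called without that array (0.16, limma adjusted p = 0.0528), and it was called in 9 of the 18 settings. In its place Ndufa3 was called, at 0.31.

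Complex IV, with 14 members, had 5 lower and 1 higher, and 9 lower and 1 higher without fertilized replicate 3. Cox6b2, the isoform of subunit VIb known from testis, was at 10.01, 10.12 and 9.88 in androgenetic and 11.33, 11.44 and 10.79 in fertilized cells, a change of -1.18 ± 0.159 (SE; 2.27-fold lower, limma adjusted p = 0.000138), or -1.38 without fertilized replicate 3. Its general counterpart Cox6b1 measured 13.75, 13.84 and 13.86 against 13.68, 13.69 and 12.76 and was not called (0.44, limma adjusted p = 0.102; 0.13 without fertilized replicate 3). A second Cox6b1 probe was called, at 0.65, and the first was called at 0.60 without fertilized replicate 2. The difference of these 2 isoform changes was not tested.

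Cox7a2l, a protein that links complexes III and IV into supercomplexes and is placed with complex IV by its name, was at 12.76, 12.82 and 12.77 in androgenetic and 13.27, 13.11 and 13.29 in fertilized cells, a change of -0.44 ± 0.077 (SE; limma adjusted p = 0.00075), or -0.41 without fertilized replicate 3. Cox7a1, its muscle relative, was not called over all arrays (-0.32) but was lower without fertilized replicate 3 (-0.83, limma adjusted p = 5.27e-05). Cox7a2, the general form, gave -0.06 and -0.25 in those fits and was called only in the second. Cox7c, a small structural subunit, fell by 0.65 on the log2 scale, from 14.82, 14.70 and 14.22 in fertilized to 13.86, 13.96 and 13.96 in androgenetic cells. It was -0.83 without fertilized replicate 3. Also lower were Cox5a, on the matrix side of the complex (-0.24; -0.23 without that array), and the X-linked Cox7b (-0.47; -0.64). The Cox7b call was lost without any 1 of the androgenetic or parthenogenetic arrays or without fertilized replicate 1 (limma adjusted p from 0.052 to 0.106). It was also lost under some processing settings, and held in 9 of the 18 settings. Cox7b was dim on the androgenetic arrays, at 7.20 to 7.39, where detection begins at 6.63 to 6.73. Ndufa4, long counted in complex I and now placed in complex IV, was the higher one (0.42; 0.27 without fertilized replicate 3), a call lost without androgenetic replicate 3 (limma adjusted p = 0.063). Cox4i1, the regulatory subunit, showed no difference beyond its spread (-0.00 ± 0.080, SE; -0.06 without fertilized replicate 3).

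Complex V had 2 of 15 subunits lower and 2 higher, and 4 lower and 2 higher without fertilized replicate 3. Both lower ones belong to the F1 part, which makes the ATP. Atp5a1 was at 10.69, 10.82 and 10.83 in androgenetic and 11.42, 11.54 and 12.16 in fertilized cells, a change of -0.93 ± 0.175 (SE; 1.91-fold lower, limma adjusted p = 0.00115) that was -0.71 without fertilized replicate 3. Atp5c1, the gamma subunit that turns in the centre, measured 13.77, 13.73 and 13.66 against 14.08, 14.25 and 14.08, a change of -0.42 ± 0.077 (SE; limma adjusted p = 0.00105), or -0.44 without it. In both genes every androgenetic array was below every fertilized array. Atp5b, the catalytic beta subunit, was between 15.74 and 15.86 on all 8 arrays, near the top of the scale.

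Higher were Atp5g3 (0.34), a gene of the c-ring, and Atp5l (0.61), subunit g of the membrane part, which was 0.35 without fertilized replicate 3. The Atp5l call was lost without androgenetic replicate 2 or 3 (limma adjusted p = 0.0645 and 0.0609). Atp5g1, Atp5g2 and Atp5g3 encode the same mature c subunit with different import signals. Atp5g1 gave -0.27 and Atp5g2 -0.17, neither of them called. Without fertilized replicate 3 both were called lower, at -0.53 and -0.26, and Atp5g3 was called higher, at 0.36. Differences between these genes were not tested, and Atp5g3 is near the top of the scale. Scaling to the 75th percentile left Ndufb7 as the single subunit called higher and put 30 lower, a split of 1 to 30 in place of 7 to 26. That scaling moved the median of all genes to -0.107.

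Promoters are shown for 4 subunits of complexes I, II and III that were lower in androgenetic cells in every setting, 1 for each of the motifs searched. NRF1, ETS-family factors such as GABP, YY1 and CREB are known regulators of respiratory chain genes. RefSeq promoters (GRCm38.p6, 250 bases before to 50 after an annotated start of the gene) matched 61 of the 72 subunits. For Ndufs7 that start lies downstream of the gene's first annotated base. Each is written 5′ to 3′ on the gene's strand, which is the plus strand for all 4, with the motif in capitals. Uqcrc1 lies at chr9:108936398-108936697 and holds the NRF1 motif at 2 places, and Sdhb at chr4:140961021-140961320 has the ETS motif. Ndufs7 at chr10:80249199-80249498 has the YY1 motif and Ndufb2 at chr6:39592315-39592614 the CRE. The motifs of Uqcrc1, Sdhb and Ndufs7 begin after the annotated start, and only that of Ndufb2 lies before it.
Uqcrc1: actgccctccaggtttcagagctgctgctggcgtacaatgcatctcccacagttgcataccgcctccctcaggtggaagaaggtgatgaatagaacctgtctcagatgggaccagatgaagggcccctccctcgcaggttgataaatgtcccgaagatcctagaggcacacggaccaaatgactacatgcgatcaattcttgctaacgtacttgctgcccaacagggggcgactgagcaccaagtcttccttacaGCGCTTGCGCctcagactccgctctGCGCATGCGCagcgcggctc
Sdhb: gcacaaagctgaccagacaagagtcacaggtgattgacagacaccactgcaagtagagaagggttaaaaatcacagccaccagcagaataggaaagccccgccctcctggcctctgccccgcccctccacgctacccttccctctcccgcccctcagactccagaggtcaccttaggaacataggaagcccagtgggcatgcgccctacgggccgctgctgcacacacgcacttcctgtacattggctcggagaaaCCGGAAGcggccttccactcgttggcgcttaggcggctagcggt
Ndufs7: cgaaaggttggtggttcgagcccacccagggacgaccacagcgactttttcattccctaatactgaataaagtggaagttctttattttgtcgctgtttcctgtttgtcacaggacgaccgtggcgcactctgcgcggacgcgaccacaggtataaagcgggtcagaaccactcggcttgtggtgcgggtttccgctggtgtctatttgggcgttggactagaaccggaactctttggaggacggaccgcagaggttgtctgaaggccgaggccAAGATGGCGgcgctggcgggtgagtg
Ndufb2: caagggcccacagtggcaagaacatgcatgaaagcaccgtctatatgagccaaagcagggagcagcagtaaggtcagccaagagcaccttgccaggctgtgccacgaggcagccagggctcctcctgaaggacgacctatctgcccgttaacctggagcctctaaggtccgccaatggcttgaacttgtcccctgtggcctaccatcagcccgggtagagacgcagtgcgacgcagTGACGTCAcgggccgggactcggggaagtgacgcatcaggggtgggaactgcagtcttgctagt

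Both strands were searched for the NRF1 motif (its letters are the capitals in Uqcrc1, where the fifth base is free to vary), CCGGAAG (ETS family), AAGATGGCG (YY1) and TGACGTCA (CRE), which do not contain each other. The NRF1 motif was in 13 of 61 subunit promoters (21.3%), against 5.2% of all RefSeq promoters and 12.2% of those of measured genes. For the ETS motif the counts were 15 (24.6%, against 9.9% and 21.1%), and for the CRE 3 (4.9%, against 2.0% and 3.8%). The YY1 motif was in 7 (11.5%, against 1.6% and 4.0%). None of the 4 was in 28 of the 61. Subunits that were higher held motifs too: Ndufb7, Uqcrh and Atp5l had the ETS motif and Atp5g3 the NRF1 motif. A match is a stretch of letters in this window and was not tested as a binding site.

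Parthenogenetic against fertilized cells asked the same question for a maternal-only genome. Here 4 subunits were higher, 2 were lower and 66 were not called (limma), with a median change of 0.078. Over all genes 20.3% were called higher and 20.3% lower, with a median of -0.0058, so both shares of subunits (5.56% and 2.78%) were below the background. At 2-fold or more there was 1 subunit, Ndufa1, beside 5.51% of all genes. Leaving out fertilized replicate 3 gave 6 higher and 12 lower (8.33% and 16.7%), a median of -0.012, beside 21.5% and 22.3% of all genes. No called subunit then reached 2-fold by limma, where 5.73% of all genes did, and Atp5e at -0.98 and Ndufa1 at 0.97 were the nearest. The count of higher subunits was 2 without any 1 of the androgenetic arrays, 7 without fertilized replicate 1 and 1 without parthenogenetic replicate 1. The count of lower subunits was 4 without fertilized replicate 2 and 1 without parthenogenetic replicate 2, and 3 without fertilized replicate 1. Of the 72, 45 were called in none of the 18 settings.

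The largest change was in Ndufa1, an X-linked membrane subunit needed to assemble complex I. It was at 14.08 and 14.17 on the parthenogenetic arrays and at 13.28, 13.02 and 12.23 on the fertilized arrays, a change of 1.28 ± 0.257 (SE; 2.43-fold higher, limma adjusted p = 0.00455). The androgenetic arrays, at 12.94, 13.11 and 13.10, lay within the fertilized range. The change was 0.97 without fertilized replicate 3, and Ndufa1 was called higher in every setting. Cox7b, an X-linked complex IV subunit, measured 8.68 and 8.60 against 7.66, 8.21 and 7.43, a change of 0.88 ± 0.196 (SE; 1.84-fold higher, limma adjusted p = 0.00769), and 0.71 without that array. Its call was lost without parthenogenetic replicate 1 (limma adjusted p = 0.0531). Ndufb11, the third X-linked member, was at 7.79 and 7.23 against 6.77, 7.31 and 7.30, which overlap, and was not called (0.38, limma adjusted p = 0.17; 0.47 without fertilized replicate 3, not called).

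These X-linked members were not alone on their chromosome. Of all 278 measured X-linked genes, 192 were higher and 9 lower in parthenogenetic cells, with a median of 0.62, and without fertilized replicate 3 the counts were 205 and 10. The sex labels differ between the groups, so parental origin and the number of X chromosomes cannot be told apart. On the autosomes 2 of 69 subunits were higher and 2 lower, and 4 and 12 without fertilized replicate 3. The higher ones were Ndufa5, of the matrix arm of complex I (0.77, limma adjusted p = 0.0498), and Atp5g3 (0.23, limma adjusted p = 0.0412), both close to the threshold. They stayed called without fertilized replicate 3, at 0.46 and 0.24. Both calls were lost without any 1 of the androgenetic or parthenogenetic arrays (limma adjusted p from 0.0703 to 0.21), and further without fertilized replicate 2 for Ndufa5 (0.0569) and without fertilized replicate 1 for Atp5g3 (0.0977).

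Cox7a2l was the subunit with the clearest decrease. It was at 12.57 and 12.48 in parthenogenetic and 13.27, 13.11 and 13.29 in fertilized cells, a change of -0.70 ± 0.086 (SE; 1.62-fold lower, limma adjusted p = 0.000378), and it was lower in every setting. Fertilized replicate 3 lay close to replicate 1 for it, and the change without that array was -0.67. Its order of levels over the groups was fertilized, androgenetic, parthenogenetic, with no overlap between neighbours. Sdhd, at 9.30 and 9.11 against 9.57, 9.59 and 9.86, was lower by -0.46 ± 0.113 (SE; limma adjusted p = 0.0115), and by -0.37 without fertilized replicate 3, while the call was lost without parthenogenetic replicate 2 (limma adjusted p = 0.0979). Cyc1 differed by 0.00 ± 0.077 (SE; -0.03 without fertilized replicate 3), at 12.76 and 12.77 against 12.78, 12.80 and 12.70.

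Several calls in this comparison depended on fertilized replicate 3. Without it Atp5e, the epsilon subunit of ATP synthase, was called lower (-0.98, limma adjusted p = 0.00523). So were Ndufa6 (-0.55), Ndufb2 (-0.47), Ndufb5 (-0.41), Cox7a2 (-0.40), Ndufa7 (-0.36), Ndufs8 (-0.30), Sdhc (-0.26) and Ndufa13 (-0.24). Atp5e was detected on 3 androgenetic, 1 parthenogenetic and 3 fertilized arrays. Cox7a1 turned from 0.14, not called, to -0.37 (limma adjusted p = 0.0154). Atp5g1 (0.34) and Ndufb7 (0.31) were then called higher. Atp5g1, at 0.60 over all arrays, was also called without fertilized replicate 1 or 2 (0.74 and 0.73), and Ndufb7 without fertilized replicate 2 (0.80).

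**Figure D4:**
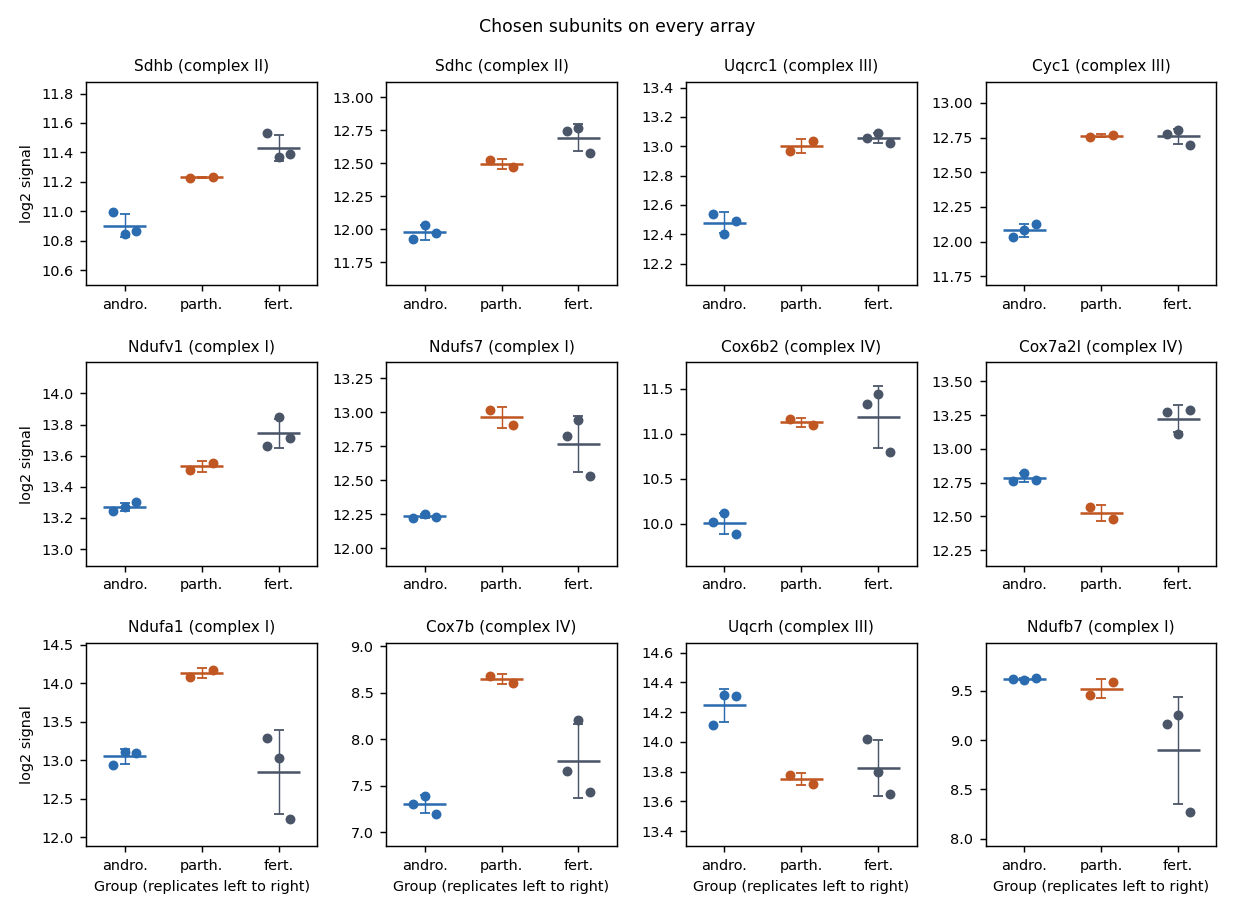
log2 signal (y axis) of 12 subunits in the 3 groups (x axis), 1 point per array, with the mean (long bar) and SD (error bar). Sdhb, Sdhc, Uqcrc1, Cyc1, Ndufv1, Ndufs7 and Cox6b2 are lowest on the androgenetic arrays, Ndufa1 and Cox7b are highest on the parthenogenetic arrays, and Cox7a2l is highest on the fertilized arrays.

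Androgenetic against parthenogenetic cells set both uniparental genomes side by side. They share each of their groups with a comparison above, so these calls are not independent of it. Of 72 subunits, 26 were lower and 3 were higher in androgenetic cells, with a median of -0.26, and 3 of those called differed by at least 2-fold (Ndufa1, Cox6b2 and Cox7b). Over all genes 37.1% were lower, 34% were higher and 27.3% were called at 2-fold or more, with a median of -0.029. The share lower among subunits, 36.1%, was near that background, and the share higher, 4.17%, was under it. With the spread estimated without fertilized replicate 3, 36 were lower and 6 higher (50% and 8.33%), against 39.7% and 36.2% of all genes. The share lower was then above the background. The count lower was 17 without androgenetic replicate 1 and 13 without parthenogenetic replicate 1. The count higher was 2 without parthenogenetic replicate 1 and 1 without parthenogenetic replicate 2, and it was 2 without androgenetic replicate 2 or 3.

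By complex, 14 of 32 subunits of complex I were lower, 2 of 3 of complex II, 3 of 7 of complex III, 4 of 14 of complex IV and 3 of 15 of complex V. Leaving out fertilized replicate 3 made these counts 19, 2, 4, 7 and 4. All 3 X-linked members were lower. Cox7b was at 7.30, 7.39 and 7.20 in androgenetic and 8.68 and 8.60 in parthenogenetic cells, a change of -1.35 ± 0.196 (SE; 2.54-fold lower, limma adjusted p = 0.000264). Ndufa1 changed by -1.08 (2.11-fold lower, limma adjusted p = 0.00481), and Ndufb11 by -0.52, a call lost without any 1 androgenetic array or parthenogenetic replicate 1 (limma adjusted p from 0.0612 to 0.362). X-linked genes as a whole were lower in 152 and higher in 61 of 278, and in 165 and 62 with the spread taken without fertilized replicate 3.

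On the autosomes Cox6b2 gave -1.13 (2.18-fold lower, limma adjusted p = 0.000435), from 11.16 and 11.09 in parthenogenetic cells. Cyc1 gave -0.68 ± 0.077 (SE; limma adjusted p = 5.27e-05) and Ndufs7 -0.73, from 13.02 and 12.91. Of the c-ring genes, Atp5g1, at 12.89, 12.86 and 12.99 against 13.75 and 13.84, was lower by -0.88 ± 0.214 (SE; 1.84-fold, limma adjusted p = 0.00537), and Atp5g2 by -0.48. Atp5g3, near the top of the scale, gave 0.11 and was not called. Without parthenogenetic replicate 1 Atp5g2 just missed the threshold (limma adjusted p = 0.0558). Uqcrh was higher at 0.50, against 13.78 and 13.72 in parthenogenetic cells, and was called in every setting. Cox7a2l was higher at 0.26, which was lost without androgenetic replicate 2 or 3 or either parthenogenetic array (limma adjusted p from 0.0529 to 0.137). Cycs was higher at 0.66 (limma adjusted p = 0.0115), with no fold given because only 1 of 2 parthenogenetic arrays detected it. That call was lost without parthenogenetic replicate 2. The second Cycs probe, kept through the androgenetic arrays alone, gave 0.75, which is again not read as support.

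Genes that assemble and serve the machinery were counted from the same fit and are read beside the shares of all genes already given: 39.3% lower and 35.4% higher in androgenetic against fertilized cells, 20.3% each in parthenogenetic against fertilized cells, and 37.1% and 34% between the uniparental kinds. Of 44 assembly factors listed, 32 were measured, and 15 were lower and 8 higher (46.9% and 25%) in androgenetic than in fertilized cells, with a median of -0.044. Without fertilized replicate 3, 16 were lower and 9 higher. Ndufaf7, a methyltransferase that acts on complex I, was at 8.90, 9.07 and 9.10 in androgenetic, 10.18 and 10.22 in parthenogenetic and 11.04, 10.86 and 11.06 in fertilized cells. Lrpprc, which stabilises mitochondrial mRNAs, was at 9.35, 9.28 and 9.29 in androgenetic cells, at 9.96 or above on both parthenogenetic arrays, and at 11.14, 10.94 and 11.34 in fertilized cells. Both were lower in both uniparental kinds than in fertilized cells, by -1.97 and -1.83 in androgenetic and by -0.78 and -1.16 in parthenogenetic cells. With fertilized replicate 3 left out these were -1.93 and -1.735, and -0.75 and -1.07. In parthenogenetic against fertilized cells 7 assembly factors were lower and 5 higher (21.9% and 15.6%, near the background), and 9 and 5 without fertilized replicate 3. Between the uniparental kinds 11 were lower and 11 higher (34.4% each; 12 and 11 without fertilized replicate 3), led by Ecsit at -1.27, Ndufaf7 at -1.18 and Cox20, which helps insert a complex IV subunit, at 1.11.

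Factors for mitochondrial DNA expression and biogenesis were measured for 17 of 20 genes, with 11 lower and 3 higher (64.7% and 17.6%) in androgenetic than in fertilized cells and a median of -0.62. The counts were the same without fertilized replicate 3, with a median of -0.56. Nrf1 had the largest increase of the list, 1.065, or 1.017 without that array. It was at 10.33, 10.47 and 10.49 in androgenetic and 9.26, 9.56 and 9.27 in fertilized cells. Esrrb, a nuclear receptor that is also a pluripotency marker, changed by -3.10, or by -3.05 without that array. Ppargc1b, a coactivator of mitochondrial genes, was detected on no androgenetic array and was at least 4.25-fold lower there, measured against the signal at which detection begins. Tfb1m, which methylates mitochondrial ribosomal RNA, changed by -1.43 (-1.41 without it), from 10.35, 10.40 and 10.44 in fertilized cells. In parthenogenetic against fertilized cells 3 of the 17 were lower and 3 higher (17.6% each, near the background), and 3 and 2 without fertilized replicate 3. Between the uniparental kinds 11 were lower and 2 higher (64.7% and 11.8%), in both array sets.

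Citric acid cycle and pyruvate entry genes, 15 of 21 measured, were lower in 8 and higher in 2 (53.3% and 13.3%) in androgenetic than in fertilized cells, with or without fertilized replicate 3. Suclg2, a subunit of succinyl-CoA ligase, changed by -1.14, Idh3g by -0.80 and Idh3a by -0.59, the last 2 being subunits of the same isocitrate dehydrogenase, and these were -1.06, -0.85 and -0.62 without that array. In parthenogenetic cells 3 were higher and 3 lower in both array sets (20% each, near the background), with the X-linked Idh3g (0.64) and Pdha1 (0.63) higher and Dld lower (-0.59). Without fertilized replicate 3 these were 0.58, 0.75 and -0.41. Between the uniparental kinds 6 were lower and 1 higher (40% and 6.67%), and 6 and 2 without fertilized replicate 3.

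Of 21 carriers and partners of the chain, 14 were measured, with 5 lower and 1 higher (35.7%, near the background, and 7.14%) in androgenetic than in fertilized cells, and 5 and 3 without fertilized replicate 3. Dhodh (-1.34) and Gpd2 (-1.06), which both feed electrons to ubiquinone, and Vdac1 (-0.96), the outer-membrane channel, were the lowest, at -1.35, -1.03 and -0.93 without that array. In parthenogenetic cells 3 were higher and 1 lower (21.4% and 7.14%), with Etfb at 0.69 and the X-linked Slc25a5, an ATP/ADP carrier, at 0.59. Without fertilized replicate 3 these genes were at 0.55 and 0.66, 4 were higher, and the lower one, the channel Vdac2, moved from -0.31 to -0.27 and was no longer called (limma adjusted p = 0.0841). Between the uniparental kinds 7 were lower and 2 higher (50% and 14.3%), and 8 and 3 without fertilized replicate 3.

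Subunits and regulators outside the symbol rule were measured for 6 of 10 genes, of which Atp5mpl, listed by an older name, is also among the 72. In androgenetic against fertilized cells 2 were lower and 2 higher in both array sets (33.3% each). The higher ones were Ndufab1 and Coq10b. Ndufab1 was at 7.63, 7.55 and 7.51 against 6.01, 6.18 and 6.14, where the fertilized signals lay below the level at which detection begins. The parthenogenetic signals, 6.34 and 5.71, lay below it too. Ndufab1 thus passed the detection filter through the androgenetic arrays alone, which favours calling it higher in them against either group. Coq10b was at 11.33, 11.35 and 11.35 against 10.20, 10.12 and 10.41. Chchd10, an intermembrane-space protein, was at 11.61, 11.62 and 11.53 in androgenetic, 15.26 and 15.23 in parthenogenetic and 15.29, 15.54 and 15.30 in fertilized cells, a change of -3.79 (13.8-fold lower, limma adjusted p = 4.13e-09), or -3.83 without fertilized replicate 3. No oxidative phosphorylation subunit among the 72 changed as much in this comparison. None of the 6 was called in parthenogenetic against fertilized cells by limma, where the smallest unadjusted p was 0.0761 (Atp5mpl). Leaving out fertilized replicate 3 gave no call either, with Higd2a nearest (limma adjusted p = 0.0522) and alone below the threshold before adjustment. Between the uniparental kinds 2 were higher and 1 lower (33.3% and 16.7%), and 2 and 2 without fertilized replicate 3.

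Ribosomal proteins were counted beside the subunits in the same fit. Mitochondrial ribosomal proteins were lower in 31 and higher in 14 of 71 genes (43.7% and 19.7%) in androgenetic against fertilized cells, and cytosolic ones lower in 15 and higher in 5 of 54 (27.8% and 9.26%). Without fertilized replicate 3 those counts were 35 and 14, and 22 and 4. In parthenogenetic against fertilized cells they were 7 lower and 7 higher (mitochondrial, 9.86% each) and 3 lower and 1 higher (cytosolic, 5.56% and 1.85%), and without fertilized replicate 3 they were 9 and 10, and 6 and 1. Between the uniparental kinds 31 mitochondrial ones were lower and 8 higher (43.7% and 11.3%), and 13 cytosolic ones lower and 5 higher (24.1% and 9.26%). These were 32 and 11, and 18 and 7, with the spread taken without fertilized replicate 3.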

How the data were processed

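Linear intensities of 25697 probes, not normalized, were deposited for each array, read with BeadStudio 3.1.3 per the submitters' processing notes from 0.55 ug of total RNA per the labels. The authors also deposited detection p-values, 1 per probe and array. A second deposited table holds log2 values of 12891 probes, rebuilt here to within 0.000742 by quantile normalization of log2 signals, and it served as an alternative. Here neqc (limma 3.58.1, R 4.3.3) was applied to the intensities, with background from the detection p-values and an offset of 16. A probe was kept if at least 2 of 8 arrays had a detection p under 0.01, which left 12300. The offset compresses changes of dim genes. All 8 arrays entered 1 linear model of group means, with two-sided eBayes tests (prior degrees of freedom 3.51, residual 5), Benjamini-Hochberg adjustment over all kept probes and a threshold of 0.05.

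Gene names came from the platform annotation, which covers the authors' log2 table alone, and chromosomes from RefSeq GRCm38.p6. Of the 72 members, 13 had several probes, and these gave no opposite calls. Probes of 1 gene differed in being called for 5, 3 and 3 of the 13 in the 3 comparisons in the order above. Ndufs4 was not called in androgenetic against fertilized cells by its brightest probe, whereas its dimmer probes were called lower (-0.25, -0.31 and -0.44). Ndufs5-ps is annotated as a transcribed pseudogene and may share signal with Ndufs5. Members and lists were chosen with earlier results of these data known. Values on every array follow a rule: the 2 largest called increases and decreases per complex and comparison, isoform pairs, X-linked members, Cycs, Cyc1 and the Sdh genes, and up to 3 called genes of each other list; other values are given after they were seen. Same-numbered arrays had the same passage number, and the labels state no other pairing. Their residuals correlated between -0.0896 and 0.0671, which cannot exclude a shared effect on part of the genes. Alternatives were other normalizations, offsets, filters and probe rules, a replicate block, fits of 2 groups, and leaving out each array. The fit was tested on simulated data.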

Additional observations from a re-analysis of the deposited data

How the results depend on the processing

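With 2 or 3 arrays per group and 1 array that stands apart, small changes were decided by which arrays entered. Leaving out each array in turn, androgenetic against fertilized cells gave 4 to 11 higher and 19 to 39 lower subunits (median -0.25 to -0.035), parthenogenetic against fertilized 1 to 7 and 1 to 12 (median -0.012 to 0.145), and androgenetic against parthenogenetic 1 to 6 and 13 to 36 (median -0.27 to -0.21). The number higher in androgenetic than in fertilized cells was 7, and 11 with no background correction, with the authors' deposited log2 table or with the mean over probes of a gene. It was 1 under 75th percentile scaling, where the median was -0.24. In parthenogenetic against fertilized cells the number higher was 4, and 7 with no background correction. It was 2 under 75th percentile scaling, with only the 2 groups fitted, with a replicate block, and without X-linked members. There the number lower rose from 2 to 7 under 75th percentile scaling. In androgenetic against parthenogenetic cells the number higher was 3, and 7 with only the 2 groups fitted. With the replicate block, counts in androgenetic against fertilized cells were 8 higher and 25 lower, and in androgenetic against parthenogenetic cells 3 and 21. Equal replicate numbers share a passage number, and the labels state no other pairing. Cox7a1 in parthenogenetic against fertilized cells turned from 0.14 to -0.37 without fertilized replicate 3, the lowest of its values with 1 array left out, of which the highest was 0.41. Of 560 values of the 33 named subunits per comparison, 526, 514 and 528 kept their side of the threshold in the 3 comparisons in the order above. Those that were called also kept their direction, whereas those not called could change sign. Ndufa1 in androgenetic against fertilized cells did so, from 0.20 to -0.10 without fertilized replicate 3. The causes of these shifts were not tested.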

Other observations

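A second, dimmer probe of Atp5j, which encodes coupling factor 6 of ATP synthase, measured 10.05, 10.14 and 10.19 on the androgenetic arrays, 8.62 and 8.71 on the parthenogenetic arrays and 7.82, 8.03 and 7.84 on the fertilized arrays. The groups were fully apart, and androgenetic cells were higher than fertilized cells by 2.23 on the log2 scale. The brighter probe, used for the gene above, differed by 0.08 and was not called. Which transcripts the 2 probes read was not tested.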
